A study of Bos taurus with 12 samples.

Results

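The insulin-like growth factors IGF1 and IGF2, their receptor IGF1R, the IGF binding proteins IGFBP2 to IGFBP7 and the growth hormone receptor GHR were followed between the hypertrophic and the reserve zone of the cattle growth plate. The members were all probe sets whose gene symbol in the platform annotation is 1 of these 10 genes, and each probe set was kept apart. This gave 28 of 24016 probe sets, control probe sets left aside. GHR had 11 of them, IGF1 and IGF2 had 4 each, IGF1R and IGFBP3 had 2 each, and IGFBP2, IGFBP4, IGFBP5, IGFBP6 and IGFBP7 had 1 each. A further 2 probe sets carry GHR beside another symbol and were not counted.

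Chondrocytes, the cells of cartilage, were taken from males of dairy cattle, under 10 months old, at the growth plate of the distal metacarpus. Collagenase P freed them from their matrix over 4 hours, and density centrifugation then parted them. The lightest fraction stands for the hypertrophic zone (HZ), with enlarged cells that mineralise their matrix, and the heaviest for the reserve zone (RZ), with slowly dividing precursor cells. Each zone has 6 one-colour arrays, and HZ and RZ arrays of the same number, from 1 to 6, form a pair. No treatment, genotype or breed separates the groups. The series description calls the pairs independent without naming the animals behind them, so p-values speak only of how these pairs vary, which may be technical in part.

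Growth hormone acts through its receptor GHR, the kinase JAK2 and the transcription factor STAT5B, and IGF1 is a classical target of that route. IGF1 and IGF2 signal through IGF1R, and both lengthening of the bone and enlargement of growth plate chondrocytes depend on this axis. IGF binding proteins hold IGFs in the matrix and outside the cell, where they can keep them from the receptor, and proteases that cleave the binding proteins release them again.

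The fractions differed in the markers of their zones. Of 9 measured hypertrophic zone markers, MMP13, IHH, ALPL, PTH1R and MEF2C rose in HZ, 0 fell and 4 did not pass. Each was read by its brightest probe set. COL10A1 (0.11) and IBSP (0.14) were among the 4, at mean signals of 20883 and 11216. Of the 4 other probe sets of the 9 markers 2 rose, for MMP13 (2.48) and IBSP (2.20, adjusted p = 0.00127 and 0.00125). Of 7 measured reserve zone markers, SFRP5, PTHLH, APOE and CLU fell, MGP rose and 2 did not pass. Of 6 cartilage genes, each read by its brightest probe set, 0 passed in limma and 0 had an unadjusted p under 0.05. Of their 13 other probe sets 1, for COL11A1, rose (0.76, adjusted p = 0.0189), at a mean signal of 1470.1. The mean signal of the brightest probe sets was 1107 for COL9A1 and 16592 to 24316 for the other cartilage genes. Whether probe sets this bright can still show a difference was not tested. A density fraction is not a sort by a cell marker, and some genes of other cell types also differed between the zones. Of 7 macrophage markers 5 rose (C1QA, C1QB, C1QC, CSF1R and AIF1), with a summed signal of 1374 to 3039 in HZ and 978 to 2210 in RZ. On the same list CD68 did not pass, and CD14 leaned the other way, at -0.81 (adjusted p = 0.103) for its brightest probe set, while its other probe set fell (-1.02, adjusted p = 0.0254). Of 3 osteoclast markers ACP5 (1.21) and CTSK (1.46) rose, and the summed signal was 7104 to 9958 in HZ and 2272 to 5645 in RZ. MMP9 did not pass (0.97, adjusted p = 0.248). The 2 other probe sets of ACP5 did not pass either, at 0.79 and 0.49 (adjusted p = 0.0745 and 0.265). Of 9 granulocyte and lymphocyte markers CATHL1 (-1.85), NKG7 (-1.67) and PTPRC (-1.72) fell, 0 rose and 6 did not pass. The summed signal of the 9 was 356 to 1473 in HZ and 483 to 8953 in RZ. The other NKG7 probe set leaned the other way, at 0.78 (adjusted p = 0.144), higher in HZ in 6 of 6 pairs. The other PTPRC probe sets gave -0.24 and 0.19 (adjusted p = 0.688 and 0.593). Of 8 perichondrial and fibroblast markers FBN1 and PDGFRA fell, 0 rose and 6 did not pass. The summed signal of the 8 was 12686 to 16944 in HZ and 15373 to 30220 in RZ. Of the 6, COL1A2 (-1.12, adjusted p = 0.0515) and COL1A1 (-1.05, adjusted p = 0.105) leaned the same way as FBN1. THY1 gave -0.19, COL3A1 -0.14, LUM -0.06 and POSTN, whose mean signal was below 16, 0.17. The part of these cell types in the differences given here was not tested. The log2 ratio of 3′ to 5′ actin probe sets, which rises as RNA or its labelled copies shorten, averaged 3.03 ± 0.685 for HZ arrays and 2.34 ± 0.453 for RZ arrays (SD, n = 6). In 5 of 6 pairs it was the HZ array that had the higher value (two-sided p = 0.0625 by an exact sign-flip test, which 6 pairs cannot bring below 0.03125).

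Of the 28 member probe sets, that of IGFBP6 rose in HZ and 1 of the 11 for GHR fell, and 26 did not pass. A probe set counts as having risen or fallen when limma, fitted to log2(signal + 16) with the pair as a block, gave an adjusted p under 0.05 over all 24016 probe sets. The share that passed was 7.14% of the members, against a background of 6.22% of all probe sets (3.26% higher and 2.96% lower in HZ), so the members as a list stood near the background. Their median log2 difference was 0.04, with 16 above 0 and 12 below, and that of all probe sets was -0.01. In 3 members (10.7%) all 6 pairs had the same sign, against 14.0% of all probe sets. An unadjusted p under 0.05 in limma was reached by 5 members. Of all 24016 probe sets, 2500 higher and 2823 lower in HZ reached it.

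Most members were dim. The signal is a linear fluorescence unit recovered from the deposited ratios, and the median probe set of an array stood at 96.7. In 18 of the 28 members (64.3%) the mean signal over the 12 arrays was under 50, against 35.2% of all probe sets, and these 18 include all 11 for GHR. Signals of different probe sets cannot be set against each other, since each binds its target with its own strength.

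**Figure D1:**
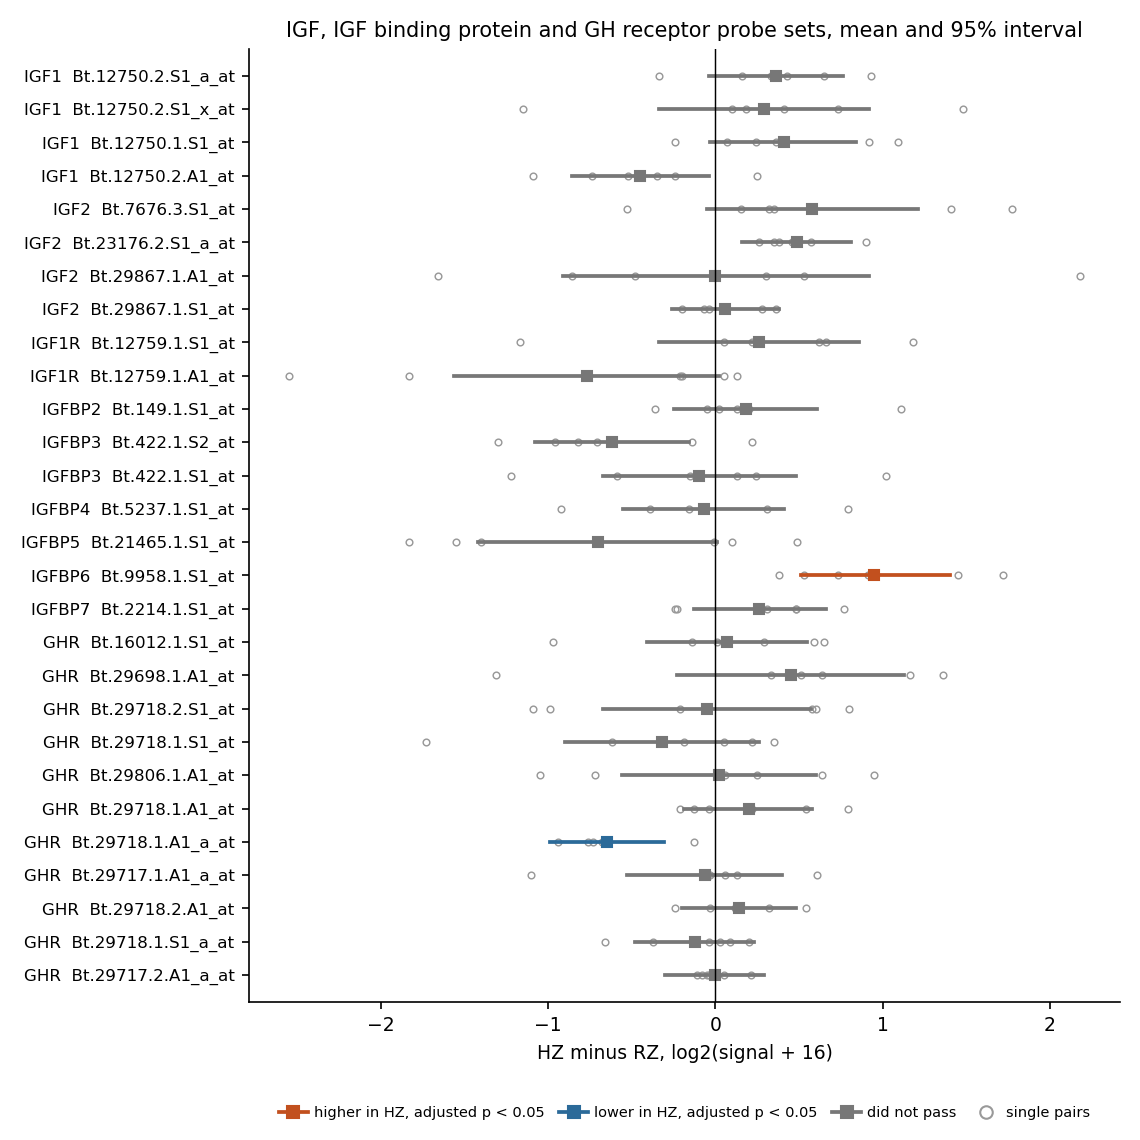
The 28 member probe sets by gene, with the difference HZ minus RZ in log2(signal + 16) on the horizontal axis: squares are means over 6 pairs, lines are 95% intervals from limma, and open circles are single pairs. Only the intervals of IGFBP6 (0.51 to 1.4) and of 1 GHR probe set (-0.99 to -0.31) are coloured as past the threshold; the circles of most other members lie on both sides of 0.

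IGFBP6, a binding protein that prefers IGF2 over IGF1, was about 1.9 times as bright in HZ. Its signal in HZ ran from 732 over a median of 1088 to 2048, and in RZ from 557 over 576 to 645. The zones did not overlap, since the lowest HZ array lay above the highest RZ array; 1.68% of all probe sets were parted in this way with HZ higher. No member was parted with HZ lower, as 1.21% of all probe sets were. The RZ arrays lay close together (588 ± 33.3, SD, n = 6) and the HZ arrays were spread (1228 ± 496, SD, n = 6), with HZ-5 and HZ-1 the brightest.

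On the log2 scale IGFBP6 rose by 0.95 ± 0.20 (SE, adjusted p = 0.0249), a fold of 1.94, with the HZ array the brighter in 6 of 6 pairs (two-sided p = 0.03125 by an exact sign-flip test, the smallest possible). The pairs gave differences from 0.38 in pair 3 to 1.72 in pair 5. The difference was 0.99 for pairs 1 and 2 against 0.94 for pairs 3 to 6, sets of arrays that stood apart in the scale of their values, though neither set passed alone (adjusted p = 0.375 and 0.124). It was 1.11 without pairs 3 and 4 (adjusted p = 0.0821), whose HZ arrays had the highest actin 3′ to 5′ ratios. In bulk RNA more cells of a type and more RNA per cell cannot be told apart. The call itself rested on few arrays: without pair 1, 4, 5 or 6 the adjusted p was 0.0813, 0.0695, 0.0748 or 0.0522, with differences from 0.80 to 1.0. It was also lost with 1 added in place of 16 (0.97, adjusted p = 0.0708).

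By the distance between log2 values centred over the 12 arrays, the 5 named probe sets most like IGFBP6 were those of CLTB, KCNK17, TAX1BP3, NUPR1 and FBF1, out of 9654 with a mean signal of at least 50. Their root mean square distances ran from 0.228 for CLTB to 0.257 for FBF1, and the median over the candidates was 0.716. CLTB is a clathrin light chain, KCNK17 a potassium channel and NUPR1 a stress-induced nuclear protein. Since these arrays chose them, their differences are a description only: 0.80 for CLTB, 1.11 for KCNK17, 1.17 for TAX1BP3, 1.06 for NUPR1 and 1.0 for FBF1.

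**Figure D2:**
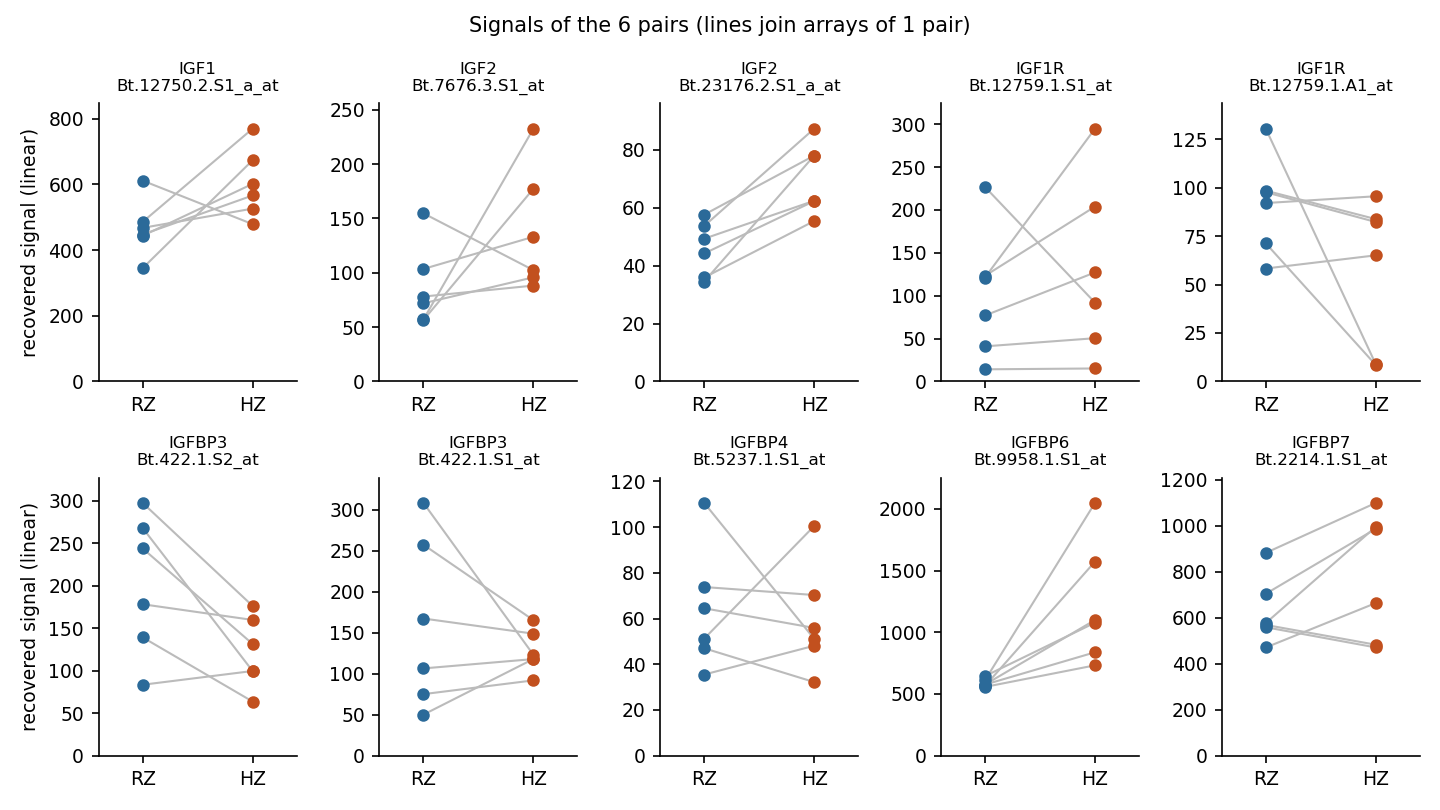
Recovered signal (linear axis from 0, its scale set for each panel) of the 10 member probe sets with a mean signal of at least 50, with RZ in blue, HZ in orange and a grey line for each pair. All 6 lines of IGFBP6 and of the IGF2 probe set Bt.23176.2.S1_a_at go up; in IGFBP6 the RZ arrays cluster between 557 and 645, while in the IGF2 probe set the zones overlap.

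The ligand IGF2 did not pass, although its clearest probe set was higher in HZ in all 6 pairs. That probe set, Bt.23176.2.S1_a_at, had signals from 55.4 over a median of 70.2 to 87.3 in HZ and from 34.5 over 46.7 to 57.6 in RZ. The zones overlapped only in the narrow span between 55.4 and 57.6. Its log2 difference was 0.49 ± 0.14 (SE, adjusted p = 0.0796), with 0.37 for pairs 1 and 2 against 0.55 for pairs 3 to 6 (two-sided p = 0.03125 by an exact sign-flip test, the smallest possible). When only the probe sets with a mean signal of at least 50 were tested, the same difference passed (adjusted p = 0.0432). It passed under no other alternative. The adjusted p was 0.0639 after quantile normalization, 0.0988 on the deposited ratio and 0.106 to 0.200 with a pair left out. A brighter IGF2 probe set, Bt.7676.3.S1_at, had medians of 118 in HZ and 75.0 in RZ, and a difference of 0.58 ± 0.28 (SE, adjusted p = 0.263), with pair 3 at -0.53 and the other 5 pairs above 0. Pairs 1 and 4 stood at 1.41 and 1.77 and pairs 2, 5 and 6 between 0.15 and 0.35, and without pair 4 the mean was 0.34.

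The other IGF2 probe sets had intervals on both sides of 0. Bt.29867.1.A1_at ran from 16 to 79.1 in HZ and from 5.04 to 84.9 in RZ, with 3 pairs up and 3 down and an interval of -0.91 to 0.92. Its difference was 1.24 for pairs 1 and 2 against -0.62 for pairs 3 to 6 (limma interaction, unadjusted p = 0.0200). Such a difference between the sets of pairs had an unadjusted p under 0.05 in 2 members, against 5.03% of all probe sets. After adjustment 0 members passed, with a lowest adjusted p of 0.899, against 0.00833% of all probe sets. Bt.29867.1.S1_at, with all arrays between 2.78 and 10.2, gave 0.06 (interval -0.26 to 0.38).

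IGF1, the ligand that growth hormone induces, was read by 1 bright probe set and 3 dim ones, and none passed. The bright one, Bt.12750.2.S1_a_at, had signals from 479 over a median of 584 to 769 in HZ and from 345 over 457 to 611 in RZ. HZ was the higher in 5 of 6 pairs, and pair 3 went the other way at -0.34. The log2 difference was 0.36 ± 0.18 (SE, adjusted p = 0.280), with an interval of -0.04 to 0.76. Within pairs 1 and 2 it was 0.68 and within pairs 3 to 6 it was 0.20. Macrophages are a known source of IGF1; of their 7 markers 5 rose and CD14 was lower in HZ, as given above, and their part in the IGF1 values was not tested.

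The dim IGF1 probe sets did not all lean the same way. Bt.12750.1.S1_at gave 0.41 ± 0.20 (SE, adjusted p = 0.261) and Bt.12750.2.S1_x_at gave 0.29 ± 0.28 (SE, adjusted p = 0.611), the latter with -1.15 in pair 1 and 1.48 in pair 3. Bt.12750.2.A1_at, with a highest signal of 27.0 in HZ and 56.9 in RZ, gave -0.45 ± 0.18 (SE, adjusted p = 0.188). The difference of Bt.12750.1.S1_at exceeded it by a mean of 0.85, with gaps from 0.281 in pair 6 to 2.18 in pair 4, and the mean was 0.59 without pair 4 (two-sided p = 0.03125 by an exact sign-flip test). Over the 69 pairs of probe sets of 1 gene that were compared, 0 passed after adjustment and 6 had an unadjusted p under 0.05; the lowest adjusted p was 0.359, and 6 pairs of arrays cannot give a p below 0.03125.

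The receptor IGF1R, a tyrosine kinase of the insulin receptor family, was read by 2 probe sets that leaned in opposite directions. Their names differ in the tags S1 and A1, as do those of some IGF1, IGF2 and GHR probe sets. Which strand each tagged probe set reads is not given in the sources used here. Bt.12759.1.S1_at varied widely between pairs, with signals from 15.1 over 109.5 to 295 in HZ and from 14.1 over 99.1 to 227 in RZ. It gave 0.26 ± 0.27 (SE, adjusted p = 0.635), with 5 pairs up and pair 3 at -1.17. Bt.12759.1.A1_at ran from 8.50 over 73.7 to 95.6 in HZ and from 58.3 over 94.9 to 130.5 in RZ, and gave -0.77 ± 0.36 (SE, adjusted p = 0.240). That value came mainly from pairs 3 and 6, at -1.83 and -2.55, while the other 4 pairs lay between -0.21 and 0.13. The difference of the first exceeded that of the second by a mean of 1.03 (two-sided p = 0.03125 by an exact sign-flip test, adjusted p = 0.359). The gap ran from 0.00119 in pair 2 to 3.73 in pair 6, and its mean was 0.49 without pair 6.

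Among the other binding proteins, IGFBP3, the main IGF carrier of blood, was lower in HZ in 5 of 6 pairs at 1 of its 2 probe sets and did not pass. That probe set, Bt.422.1.S2_at, had signals from 63.7 over 116 to 176 in HZ and from 83.5 over 211 to 298 in RZ. The zones overlapped, HZ-6 lay below every RZ array, and only pair 4 was higher in HZ. The log2 difference was -0.62 ± 0.21 (SE, adjusted p = 0.112), with -1.06 for pairs 1 and 2 against -0.40 for pairs 3 to 6. Bt.422.1.S1_at gave -0.10 ± 0.26 (SE, adjusted p = 0.880), with 3 pairs up and 3 down. The probe sets differed by -0.52 ± 0.35 (SE; exact sign-flip test, two-sided p = 0.15625).

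IGFBP5, which binds to the matrix of cartilage and bone, gave the second most negative mean of the members, with a wide interval. Its probe set had signals from 5.78 over 12.5 to 73.1 in HZ and from 4.36 over 47.5 to 103 in RZ, and both zones spanned dim and brighter arrays. The log2 difference was -0.70 ± 0.32 (SE, adjusted p = 0.235, interval -1.42 to 0.01). Pairs 1, 2 and 6 stood at -1.4, -1.55 and -1.83, and pairs 3, 4 and 5 at 0.49, 0.10 and -0.01. IGFBP2, whose gene lies next to that of IGFBP5 in the RefSeq gene order of assembly ARS-UCD2.0, was near the floor on 11 arrays (2.77 to 12.5), with 45.5 on HZ-2, and gave 0.18 ± 0.19 (SE, adjusted p = 0.658).

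IGFBP7 and IGFBP4 differed by less than the spread between pairs. IGFBP7, a secreted protein of low IGF affinity that endothelial cells also make, was bright, at 471 over 825 to 1099 in HZ and 470.4 over 573 to 882 in RZ. HZ was higher in 4 of 6 pairs, and the difference was 0.26 ± 0.18 (SE, adjusted p = 0.432, interval -0.13 to 0.66). Of 7 endothelial markers PECAM1 fell, 0 rose and 6 did not pass, with a summed signal of 257 to 612 in HZ and 542 to 794 in RZ. PECAM1 itself averaged 163 in HZ and 350 in RZ. The 6 leaned both ways: TEK -0.32, CDH5 -0.11, KDR -0.03, EMCN 0.01, VWF 0.11 and CLDN5 0.62 (adjusted p = 0.220 for CLDN5). The part of endothelial cells in the IGFBP7 values was not tested. IGFBP4, which can inhibit IGF action and is cleaved by PAPPA, ran from 32.2 to 100.5 in HZ and from 35.5 to 111 in RZ, and gave -0.07 ± 0.21 (SE, adjusted p = 0.897, interval -0.55 to 0.41).

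For the growth hormone receptor, 1 of 11 probe sets fell in HZ and it lay close to the floor. Bt.29718.1.A1_a_at had signals from 0.614 over 1.72 to 13.2 in HZ and from 10.6 over 14.5 to 17.5 in RZ. On 5 HZ arrays it was at most 3.50, below every RZ array, and HZ-2 alone reached into the RZ range. The log2 difference was -0.65 ± 0.15 (SE, adjusted p = 0.0362), negative in 6 of 6 pairs (two-sided p = 0.03125 by an exact sign-flip test, the smallest possible), and its mean was -0.38 over pairs 1 and 2 and -0.78 over pairs 3 to 6.

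The size of that fall depends on the constant added before the logarithm, since the signals are of the same order as the constant: it was -2.19 with 1 added (adjusted p = 0.0394) and -0.21 with 64 added (adjusted p = 0.142). Without pair 1, 3, 4, 5 or 6 it did not pass, with differences from -0.65 to -0.59 and adjusted p = 0.0976, 0.0602, 0.107, 0.101 and 0.0920. Beside the overall background of 6.22%, 1 of 11 GHR probe sets past the threshold is a small count.

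The other 10 GHR probe sets did not pass, with differences from -0.32 to 0.45 and adjusted p of 0.437 or more, and 5 of them lay above 0. The brightest, Bt.16012.1.S1_at, had signals from 12.9 over 49.4 to 87.7 in HZ and from 30.6 over 45.1 to 55.1 in RZ, and gave 0.07 ± 0.22 (SE, adjusted p = 0.895, interval -0.41 to 0.55). Bt.29718.1.A1_at, named for the same sequence cluster as the one that fell, gave 0.20 ± 0.17 (SE, adjusted p = 0.570). This difference exceeded that of the one that fell by a mean of 0.84, with gaps from 0.342 in pair 2 to 1.48 in pair 4 (two-sided p = 0.03125 by an exact sign-flip test, adjusted p = 0.359). Bt.29718.1.S1_at and Bt.29718.1.S1_a_at, also of that cluster, leaned down, at -0.32 ± 0.26 and -0.12 ± 0.16 (SE, adjusted p = 0.530 and 0.721). The mean signals of these 10 ran from 1.86 to 47.3, and whether a difference in GHR was missed because they were dim was not tested.

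**Figure D3:**
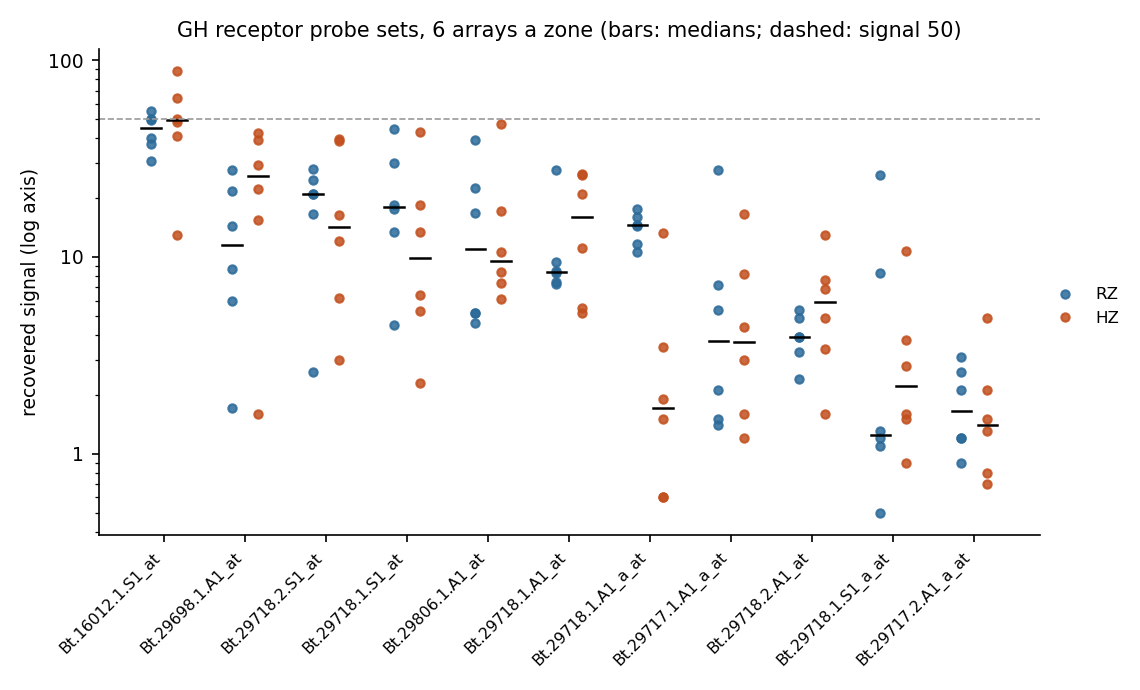
Recovered signal (log axis) of the 11 GHR probe sets, ordered by mean signal, with 6 RZ arrays in blue, 6 HZ arrays in orange, black bars for medians and a dashed line at a signal of 50. In Bt.29718.1.A1_a_at the RZ arrays lie between 10.6 and 17.5 and 5 HZ arrays at or below 3.50; in the other 10 the zones overlap, and nearly all points lie under 50.

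The genes around the members were given by 6 lists that were chosen with earlier results of these data known. Of 34 measured genes, STAT5B rose, HTRA1 fell and 32 did not pass. That is 5.88%, against 7.73% of the 9155 named genes, each by its brightest probe set (4.17% higher and 3.56% lower in HZ). The median log2 difference was -0.12 for these genes and -0.01 for all named genes. Of the 24 other probe sets of these genes 0 passed in limma, and 2, of the insulin receptor gene INSR, had an unadjusted p under 0.05. Of all 24016 probe sets, 2500 higher and 2823 lower in HZ had such a p.

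STAT5B, the transcription factor that carries the growth hormone signal to the nucleus, rose as the 1 of 4 measured growth hormone signalling genes to pass. Its signal ran from 253 over 305 to 423 in HZ and from 152 over 199.8 to 219.6 in RZ, and the zones did not overlap. The log2 difference was 0.71 ± 0.13 (SE, adjusted p = 0.0170), positive in 6 of 6 pairs, and its mean was 0.79 over pairs 1 and 2 and 0.67 over pairs 3 to 6. It did not pass when pair 1, 4 or 5 was left out (adjusted p = 0.0604, 0.0558 and 0.0623). Genes that STAT5 is known to induce did not pass: CISH gave -0.21 ± 0.14 and SOCS2 0.25 ± 0.18 (SE, adjusted p = 0.431 and 0.472), and SOCS3 varied too widely to tell, at -0.21 ± 0.49 (SE, adjusted p = 0.856).

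HTRA1, a secreted serine protease that can cleave IGFBP5, fell as the 1 of 6 measured proteases and protease inhibitors to pass. Its signal ran from 598 over 1612 to 3117 in HZ and from 3169 over 5358 to 5571 in RZ, and the zones did not overlap. The log2 difference was -1.66 ± 0.20 (SE, adjusted p = 0.00301), a signal 3.17-fold lower in HZ, in 6 of 6 pairs and in both sets of arrays (-1.94 and -1.52). It passed in each of the 6 fits with a pair left out. STC1, an inhibitor of the protease PAPPA, gave -0.47 ± 0.34, the lysosomal protease CTSD -0.20 ± 0.17 and ADAM12 -0.13 ± 0.21 (SE, adjusted p = 0.484, 0.547 and 0.769).

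Among 13 measured genes of IGF and insulin signalling 0 passed in limma, and 1 (FOXO4) had an unadjusted p under 0.05; the median was -0.16. AKT1, the kinase downstream of phosphatidylinositol 3-kinase, was lower in HZ in 6 of 6 pairs at -0.33 ± 0.16 (SE, adjusted p = 0.254). Its pairs ran from -0.88 to -0.01. So was RPTOR, a subunit of the growth-promoting kinase complex of mTOR, at -0.26 ± 0.17 (SE, adjusted p = 0.428). RPTOR stood at -1.04 in pair 6 and between -0.17 and -0.06 in the other pairs. FOXO4, a transcription factor that AKT holds out of the nucleus, was higher in 6 of 6 pairs at 0.63 ± 0.22 (SE, adjusted p = 0.131). Its pairs ran from 0.02 in pair 6 to 1.6 in pair 4. None of the 3 differences was past the threshold.

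Of 6 other ligand, receptor and binding protein genes 0 passed in limma, and 0 had an unadjusted p under 0.05. IGF2R, which takes up IGF2 for degradation, had medians of 881 in HZ and 997 in RZ and gave -0.17 ± 0.15 (SE, adjusted p = 0.577). The probe set named GH1 gave -0.11 ± 0.16 and IGFALS, the third partner of the circulating IGF complex, 0.25 ± 0.40 (SE, adjusted p = 0.742 and 0.781). The IGF2 mRNA binding proteins were dim, with IGF2BP1 at -0.23 ± 0.30 and IGF2BP3 at 0.46 ± 0.23 (SE, adjusted p = 0.726 and 0.268). The CCN proteins, matrix proteins with a domain like that of IGF binding proteins, gave 0.22 ± 0.15 for CCN1, 0.13 ± 0.14 for CCN2 and -0.09 ± 0.15 for CCN5 (SE, adjusted p = 0.451, 0.666 and 0.796).

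**Figure D4:**
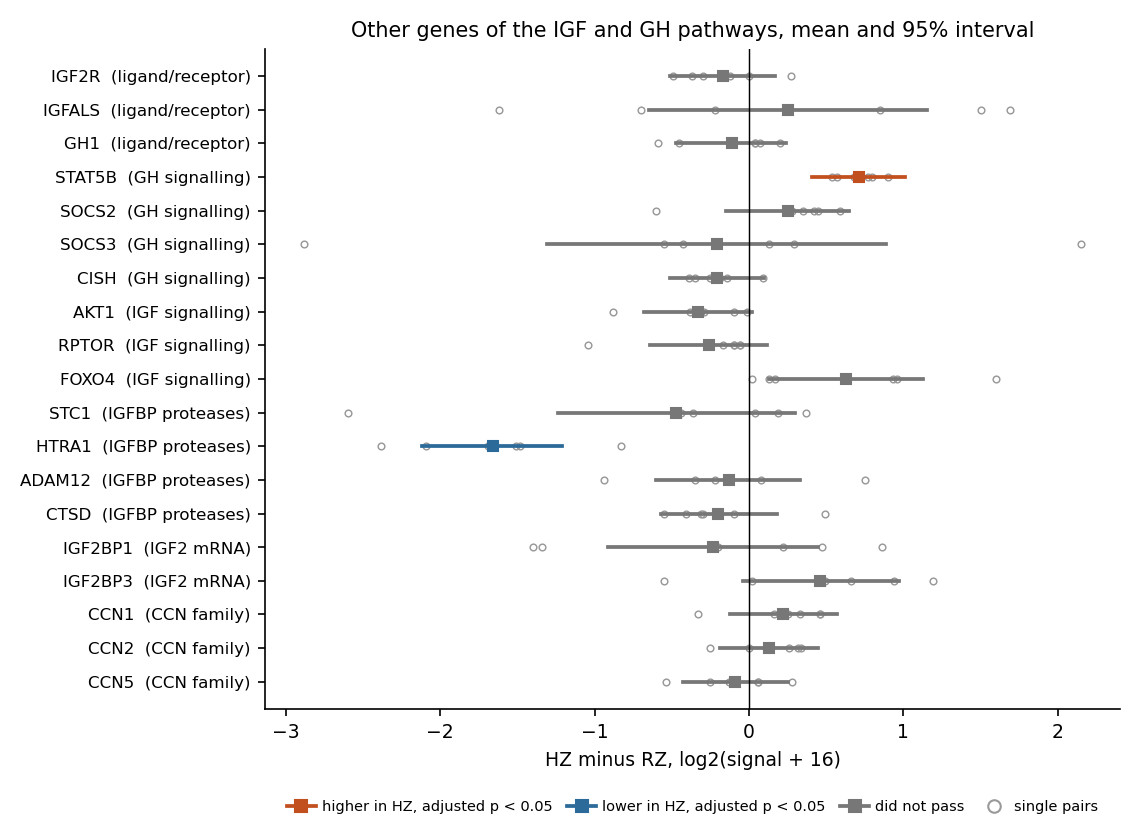
Named genes of the 6 pathway lists except INSR, with the difference HZ minus RZ in log2(signal + 16) on the horizontal axis: squares are means over 6 pairs, lines are 95% intervals from limma, and open circles are single pairs. STAT5B (0.71) and HTRA1 (-1.66) are coloured as past the threshold, with all of their circles on 1 side of 0; SOCS3 spans from -2.88 in pair 3 to 2.15 in pair 6.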

How the data were processed

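Total RNA of 12 samples, labelled as biotin cRNA, was measured on one-colour arrays. The deposited values are linear ratios of each array's scaled signal to a divisor of the probe set, read from the values: the median over the 12 arrays for 21901 of 24128 probe sets, and 1 fixed value for the other 2227. How probes were summarised and arrays normalized is not given in the sources used here. Array medians of the ratio ran from 0.934 to 1.04. Ratios fall on whole multiples of a step, which gave back the signals, with 1 step taken as 0.1 units, an assumption. The 49 values at the lowest ratio, 0.01, were taken from that ratio itself. Recovery was tested on data simulated with the same steps, so the estimate of the steps was not tested. Steps were 0.0237 to 0.0318 in pairs 1 and 2 and 0.00884 to 0.0110 in pairs 3 to 6, so values are given within both sets.

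limma 3.58.1 in R 4.3.3 was fitted to log2(signal + 16) of 24016 probe sets with the pair as a block and Benjamini-Hochberg adjustment. On simulated data for HZ against RZ (24016 probe sets), it recovered 50% of log2 changes of 1 and 91% of those of 2. In that simulation 100 probe sets changed by each size, and 7.84% of the calls were false. In the real data 1494 passed, so these rates may not hold there. The block follows the series description; deviations of same-numbered arrays correlated at 0.124 to 0.447. Symbols come from the platform annotation, and all 28 members matched RefSeq (ARS-UCD2.0) by Entrez identifier. Genes outside the members were named when they passed, or as the 3 others of a list with the smallest adjusted p. INSR was also named, for its other probe sets. A listed gene is read by its brightest probe set (mean log2 signal over the arrays). Members and lists were chosen with earlier results of these data known. Alternatives were other constants, the deposited ratio, other normalizations, a filter on dim probe sets, no block and pairs left out.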

Additional observations from a re-analysis of the deposited data

Results flagged for a closer look

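On 7 of 56 groups of 6 arrays (28 member probe sets in 2 zones) 1 array lay far from the others, with a gap over 0.625 of the group's range on the log2(signal + 16) scale; chance flags about 1 in 20. All 7 were dim, and their linear signals are given here. IGFBP2 stood at 45.5 on HZ-2, against 2.80 to 9.80 on the other HZ arrays. GHR Bt.29718.1.A1_a_at, the probe set that fell, stood at 13.2 on HZ-2, against 0.614 to 3.50. The other 5 were GHR probe sets that did not pass: Bt.29718.2.S1_at at 2.58 on RZ-2 (others from 16.6), Bt.29718.1.A1_at at 27.5 on RZ-5 (others up to 9.39), Bt.29717.1.A1_a_at at 27.6 on RZ-1 (others up to 7.24), Bt.29718.1.S1_a_at at 10.7 on HZ-6 (others up to 3.78) and Bt.29717.2.A1_a_at at 4.87 on HZ-4 (others up to 2.10).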

How the results depend on the processing

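With 6 pairs, calls of single genes were sensitive to the setting, and directions of small differences too. Over all probe sets 782 were higher and 712 lower in HZ. The counts were 315 and 163 on the deposited ratio, 368 and 215 with 1 added, 258 and 78 in pairs 3 to 6, 91 and 48 without pairs 3 and 4, and 0 and 0 in pairs 1 and 2 (limma; 1213 and 1718 at an unadjusted p under 0.05). The lower count was 1208 at a mean signal of at least 50 and 1120 with 64 added. With 1 pair left out the counts ran from 334 to 650 and from 223 to 895. Without the replicate block they were 505 and 326, and the members' calls stayed at 1 and 1.

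The 1 member that rose was 0 on the deposited ratio, with 1 added, in pairs 1 and 2, in pairs 3 to 6 and without pairs 3 and 4, 2 at a mean signal of at least 50, and 0 to 1 with a pair left out. The 1 that fell was 0 at a mean signal of at least 50 (not tested there, being dim), with 64 added, in either set of pairs and without pairs 3 and 4, and 0 to 1 with a pair left out. STAT5B (1 pathway gene higher) was lost in pairs 1 and 2, in pairs 3 to 6 and without pairs 3 and 4 (0 each), and 0 to 1 passed with a pair left out; HTRA1 was lost in pairs 1 and 2 (0). The cause was not tested, beyond fewer arrays in the smaller sets.

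Of 731 single values under an alternative 46 changed sign, none of them past the threshold in the full fit and none above 0.45 there. In pairs 1 and 2 these were IGF1 Bt.12750.2.S1_x_at (-0.53), IGFBP4 (0.20), GHR Bt.29698.1.A1_at (-0.07) and Bt.29718.2.S1_at (0.69), IGFALS (-0.06), SOCS3 (0.21) and CTSD (0.19). In pairs 3 to 6 they were IGF2 Bt.29867.1.A1_at (-0.62), IGFBP2 (-0.06), IGFBP3 Bt.422.1.S1_at (0.04), and GHR Bt.16012.1.S1_at (-0.13), Bt.29806.1.A1_at (-0.27), Bt.29717.1.A1_a_at (0.03) and Bt.29717.2.A1_a_at (0.04). Without pairs 3 and 4 they were IGF1 Bt.12750.2.S1_x_at (-0.11), GHR Bt.29718.2.S1_at (0.22) and Bt.29806.1.A1_at (-0.14), and SOCS3 (0.54). The rest were IGF2 Bt.29867.1.A1_at with 64 added (-0.03), GHR Bt.29806.1.A1_at (-0.01) and CCN2 (-0.0098) after quantile normalization, and GHR Bt.29718.1.S1_a_at on the deposited ratio (0.06).

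With a pair left out, the sign changed within these ranges: IGF2 Bt.29867.1.A1_at -0.43 to 0.33, IGFBP2 -0.0084 to 0.28, IGFBP3 Bt.422.1.S1_at -0.32 to 0.13, IGFBP4 -0.24 to 0.10, GHR Bt.16012.1.S1_at -0.04 to 0.28, Bt.29718.2.S1_at -0.22 to 0.16, Bt.29806.1.A1_at -0.17 to 0.24, Bt.29717.1.A1_a_at -0.20 to 0.14 and Bt.29717.2.A1_a_at -0.04 to 0.02, IGFALS -0.04 to 0.62, SOCS3 -0.69 to 0.32, ADAM12 -0.31 to 0.03, IGF2BP1 -0.45 to 0.0031 and CCN5 -0.16 to 0.0016.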
